A study of Homo sapiens with 4 samples.

Results

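The genes described here encode RAS, RAF, MEK and ERK proteins of the MAP kinase cascade: NRAS and HRAS, BRAF and ARAF, MAP2K1 and MAP2K2, and MAPK3. They were taken by symbol from a list, which gives 7 of the 58825 genes in each deposited count file. The other genes of these families are not analysed here. LoVo, a line established from a human colorectal adenocarcinoma, has a permanently active form of the receptor MET that escapes proteolytic processing. Gene expression was measured by 3' end RNA sequencing in 2 libraries of MET+ cells, which are LoVo cells of wild-type genotype labelled as a GFP control, and in 2 libraries of MET-KO cells, in which MET was knocked out by CRISPR-Cas9. The study picked single clones after puromycin selection and chose knockout clones by the loss of MET protein. Whether both MET-KO libraries came from the same clone is not given in the sources used here, so the knockout and the history of a clone cannot be told apart, and p-values measure only the spread between these libraries.

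RAS proteins are small GTPases that exchange factors load with GTP at the inner face of the plasma membrane. RAS bound to GTP recruits RAF kinases, RAF phosphorylates the kinases MEK1 and MEK2, and these phosphorylate ERK1 and ERK2, which act on cytosolic targets and on transcription factors. MET is a receptor tyrosine kinase that feeds this cascade through adaptor proteins. The cascade is switched mainly by phosphorylation and by nucleotide exchange, neither of which is read by RNA counts.

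Transcripts of NRAS and MAP2K1 fell in MET-KO cells, MAP2K1 to 50.002% and NRAS to 73.4% of the MET+ mean. The other 5 genes, HRAS, BRAF, ARAF, MAP2K2 and MAPK3, did not pass the test. Thus 2 of the 7 genes were called, both lower, where 54.1% of all 13801 tested genes were called, 26.9% as lower and 27.2% as higher in MET-KO cells. A called gene is one with an adjusted p under 0.05 in the quasi-likelihood test of edgeR, adjusted after Benjamini-Hochberg over all tested genes. The share of called genes in the cascade was thus not above that of all tested genes. The groups did not overlap for 4 of the 7 genes, NRAS and MAP2K1 lower (37.1% of all tested genes were so) and BRAF and ARAF higher in MET-KO cells (38.5%).

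The depth was 8429142 and 10286552 counts in the MET+ libraries, against 10137583 and 10228991 in MET-KO. MET had 2794 and 3272 counts in the MET+ libraries, against 861 and 965 in MET-KO, a log2 fold change of -1.96 (standard error 0.09). Reads from the 3' end do not read the edited site, so this value does not check the edit. The MET+ libraries held 38 and 35 counts on chromosome Y genes, and MET-KO held 7166 and 7280. Of 12 markers of intestinal epithelium, 11 were tested, 8 were lower and 2 were higher in MET-KO cells. This is 90.9% called, against 54.1% of all tested genes. The 12 markers summed to 9710 to 9745 CPM (counts scaled to a common library total) in MET+ and 7324 to 8307 CPM in MET-KO. EPCAM, CDH1, KRT8, KRT18 and KRT19 were present in all 4 libraries. Of these KRT8 was not called and the others were lower, EPCAM at -1.11 and CDH1 at -0.88 on the log2 scale. CDH17 and CEACAM5 were at 0 counts in both MET-KO libraries. VIL1 fell from 43 and 58 to 3 and 3 counts, and LGALS4 from 89 and 107 to 1 and 1. The 2 higher markers were KRT20, from 0 and 0 to 27 and 28 counts, and CDX2, from 525 and 648 to 1477 and 1338. Fibroblast markers (8 genes, 2 tested, 1 higher) summed to 1.64 to 2.17 CPM in MET+ and 3.82 to 4.32 CPM in MET-KO cells. Immune cell markers (5 genes, 2 tested, 1 lower) summed to 5.91 to 9.73 CPM and 0.827 to 0.881 CPM, and endothelial markers (4 genes, 0 tested) to 0.844 to 0.922 CPM and 0 to 0.0979 CPM. In every library the defining genes PTPRC and CD3E of immune cells, COL1A2 and DCN of fibroblasts and CDH5 and KDR of endothelium were at 0 counts. Other markers were present at low counts and differed, as COL3A1 rose from 4 and 5 to 24 and 26 counts, LYZ fell from 38 and 79 to 3 and 1 counts, and PECAM1, not tested, had 3 and 7 and then 0 counts. COL1A1 had 10 to 19 counts per library and was not called. The part of these marker and chromosome Y differences in the results below was not tested. In bulk RNA, fewer cells with a transcript and less transcript per cell cannot be told apart.

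The promoters of the 2 genes that fell, NRAS and MAP2K1, are shown beside those of their paralogs HRAS and MAP2K2. Each is 300 bases, ending 50 bases after the start site, as given by RefSeq on GRCh38.p14, and all 7 genes were found in that table. Where it listed 2 start sites, for MAP2K1 and MAP2K2, the more upstream one was used. The windows are chr1:114716722-114717021 on the minus strand for NRAS, chr11:535527-535826 on the minus strand for HRAS, chr15:66386662-66386961 on the plus strand for MAP2K1 and chr19:4124073-4124372 on the minus strand for MAP2K2. Capitals mark matches, on either strand, to the GC box GGGCGG, the CCAAT box, the ETS core CCGGAA and the E-box CACGTG, and no marked match overlaps another.
NRAS: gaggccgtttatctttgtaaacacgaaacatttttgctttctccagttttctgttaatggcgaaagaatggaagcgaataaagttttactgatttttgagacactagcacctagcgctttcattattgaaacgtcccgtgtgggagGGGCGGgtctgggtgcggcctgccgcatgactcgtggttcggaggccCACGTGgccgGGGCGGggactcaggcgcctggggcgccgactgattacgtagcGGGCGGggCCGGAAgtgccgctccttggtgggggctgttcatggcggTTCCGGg
HRAS: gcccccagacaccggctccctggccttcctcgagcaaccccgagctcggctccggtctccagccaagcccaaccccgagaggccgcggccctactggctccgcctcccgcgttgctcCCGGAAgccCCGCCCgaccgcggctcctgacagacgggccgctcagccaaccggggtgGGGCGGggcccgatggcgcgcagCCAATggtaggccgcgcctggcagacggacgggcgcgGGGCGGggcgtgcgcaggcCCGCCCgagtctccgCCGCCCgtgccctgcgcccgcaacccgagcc
MAP2K1: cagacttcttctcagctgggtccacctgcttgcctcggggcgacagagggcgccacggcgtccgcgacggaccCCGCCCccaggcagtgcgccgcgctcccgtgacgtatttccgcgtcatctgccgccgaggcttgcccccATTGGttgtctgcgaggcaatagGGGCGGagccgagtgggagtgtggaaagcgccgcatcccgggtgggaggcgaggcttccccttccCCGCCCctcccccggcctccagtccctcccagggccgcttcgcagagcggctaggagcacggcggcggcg
MAP2K2: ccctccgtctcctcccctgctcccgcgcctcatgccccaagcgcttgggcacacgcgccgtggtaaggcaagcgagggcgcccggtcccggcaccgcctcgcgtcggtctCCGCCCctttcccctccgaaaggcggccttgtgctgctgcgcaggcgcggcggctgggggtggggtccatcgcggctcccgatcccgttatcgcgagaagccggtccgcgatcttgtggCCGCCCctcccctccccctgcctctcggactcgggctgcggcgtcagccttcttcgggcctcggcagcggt

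These are CpG-rich promoters. The ratio of observed to expected CpG was 1.06 for NRAS, 0.891 for HRAS, 0.876 for MAP2K1 and 0.977 for MAP2K2, against a median of 0.579 over 35116 promoters. The BRAF promoter had the lowest ratio of the genes here, 0.547. The GC content ran from 57.3% in NRAS to 80.7% in MAPK3, against a median of 58.7%. The GC box was found 3 times in NRAS, 5 times in HRAS, 3 times in MAP2K1, 2 times in MAP2K2 and 8 times in MAPK3, and in neither BRAF nor ARAF. It was present in 45% of all promoters. Only NRAS held 2 ETS cores among these genes, HRAS and ARAF held 1 each, and 17.2% of all promoters held at least 1. The E-box was present in NRAS and MAPK3, 1 match each, and in 7.26% of all promoters. The CCAAT box was found in HRAS and MAP2K1, 1 match each, in BRAF and ARAF, 2 matches each, and in 34.6% of all promoters. The TATA box TATAAA, the AP-1 site TGACTCA and the cAMP response element TGACGTCA had no match in any of these 7 windows, and were present in 11.5%, 4.95% and 1.85% of all promoters. A match describes letters only, and NRAS and MAP2K1 shared no marked motif other than the GC box, which HRAS and MAP2K2 also held.

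NRAS (ENSG00000213281, GRCh38 chromosome 1, 114704469 to 114716894, minus strand), a RAS GTPase that is carried to the membrane by farnesylation and palmitoylation, had 568 and 637 counts in the MET+ libraries, against 461 and 576 in MET-KO. Scaled for library size, these counts were 68.5 and 65.3 CPM in MET+ and 45.1 and 53.0 CPM in MET-KO cells. Both MET-KO libraries lay below both MET+ libraries, and the difference between the nearest libraries of the groups was larger than the distance within either group. Mean NRAS fell from 66.9 ± 2.30 to 49.0 ± 5.53 CPM (SD, n = 2), which is -0.45 on the log2 scale (95% interval -0.67 to -0.22, adjusted p = 0.00103 in edgeR's quasi-likelihood test). NRAS has 1 annotated transcript, and no other annotated gene overlaps it.

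HRAS (ENSG00000174775, chromosome 11, 532242 to 537287, minus strand), the closely related RAS GTPase, had 351 and 540 counts in the MET+ libraries, against 622 and 591 in MET-KO. The levels were 42.3 and 55.3 CPM in MET+ and 60.9 and 54.3 CPM in MET-KO cells. The groups overlapped, since the second MET+ library lay above the second MET-KO library, and the MET+ libraries stood far apart. The log2 fold change was 0.23 (95% interval -0.01 to 0.48, adjusted p = 0.104 in the edgeR test), which did not pass. Without the second MET+ library the value was 0.44 (adjusted p = 0.00961 in edgeR), whereas it was 0.060 without the first MET+ library (adjusted p = 0.754 in edgeR) and 0.15 without the first MET-KO library (adjusted p = 0.433 in edgeR). The call and the size of the value thus depended on single libraries. Scaled by library totals alone, which raised the median of all tested genes to 0.11, it was 0.33 (adjusted p = 0.0178 in edgeR).

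BRAF (ENSG00000157764, chromosome 7, 140719327 to 140924928, minus strand), a RAF kinase that phosphorylates MEK, had 145 and 175 counts in the MET+ libraries, against 197 and 204 in MET-KO. The levels were 17.5 and 17.9 CPM in MET+ and 19.3 and 18.8 CPM in MET-KO cells. The groups did not overlap, as for 75.6% of all tested genes, but they were close, with means of 17.7 ± 0.311 and 19.0 ± 0.374 CPM (SD, n = 2 each). The log2 fold change of 0.10 (95% interval -0.23 to 0.43, adjusted p = 0.623 in the edgeR test) did not pass. The 3' part of BRAF overlaps NDUFB2, a subunit of respiratory complex I, on the opposite strand over 1239 exonic bases. NDUFB2 had 2285 and 2649 counts in the MET+ libraries, against 4445 and 4170 in MET-KO, and without a stated strand setting reads of such partners cannot be told apart. Of the 50-base words in the last 500 bases of BRAF transcripts, 5.23% also occur in the pseudogene BRAFP1, which had 0 counts in every library.

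ARAF (ENSG00000078061, chromosome X, 47561100 to 47571920, plus strand), the X-linked RAF kinase, had 118 and 144 counts in the MET+ libraries, against 183 and 181 in MET-KO. The levels were 14.2 and 14.8 CPM in MET+ and 17.9 and 16.6 CPM in MET-KO cells, with no overlap between the groups. The log2 fold change was 0.25 (95% interval -0.10 to 0.60, adjusted p = 0.224 in the edgeR test) and did not pass. ARAF had the fewest counts of the 7 genes and the widest interval. Its 3' end overlaps the synaptic vesicle gene SYN1 on the opposite strand over 23 bases. SYN1 had 13 and 17 counts in the MET+ libraries, against 139 and 139 in MET-KO, and the part of this neighbour in the ARAF counts was not tested. The pseudogenes ARAFP1, ARAFP2 and ARAFP3 had 0 counts.

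MAP2K1 (ENSG00000169032, chromosome 15, 66386817 to 66492312, plus strand) encodes MEK1, a kinase that phosphorylates ERK. MAP2K1 had 534 and 538 counts in the MET+ libraries, against 290 and 340 in MET-KO. The levels were 64.4 and 55.1 CPM in MET+ and 28.4 and 31.3 CPM in MET-KO cells. Both MET-KO libraries lay far below both MET+ libraries, and this was the only one of the 7 genes with a change of that size. Mean MAP2K1 fell from 59.8 ± 6.57 to 29.8 ± 2.03 CPM (SD, n = 2), a log2 fold change of -0.9999 (95% interval -1.25 to -0.75, adjusted p = 1.47e-08 in the edgeR test). The 3' part of MAP2K1 overlaps SNAPC5, a subunit of a small nuclear RNA transcription complex, on the opposite strand over 216 exonic bases. SNAPC5 had 223 and 332 counts in the MET+ libraries, against 227 and 206 in MET-KO, and was also called lower (log2 fold change -0.57, adjusted p = 0.00166 in the edgeR test). Without a stated strand setting, reads of such partners cannot be told apart, and the part of SNAPC5 in the MAP2K1 counts was not tested. The antisense RNA AC116913.1 overlaps MAP2K1 over 432 exonic bases and had 22 and 33 counts in the MET+ libraries, against 31 and 39 in MET-KO, so its counts were small beside those of MAP2K1. Of the 50-base words in the last 500 bases of MAP2K1 transcripts, 6.76% also occur in AC116913.1 on the opposite strand. The processed pseudogene MAP2K1P1 had 0 counts in every library.

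MAP2K2 (ENSG00000126934, chromosome 19, 4090321 to 4124129, minus strand), which encodes MEK2, had 858 and 1195 counts in the MET+ libraries, against 1226 and 1139 in MET-KO. The levels were 103.5 and 122.4 CPM in MET+ and 120.0 and 104.7 CPM in MET-KO cells. The groups overlapped fully. The log2 fold change was -0.01 (95% interval -0.22 to 0.20, adjusted p = 0.944 in the edgeR test), so a fall as large as that of MAP2K1 lay outside the interval. A stretch of its 3' end, 3.51% of the 50-base words, is shared with AC011005.1.

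MAPK3 (ENSG00000102882, chromosome 16, 30114105 to 30123506, minus strand) encodes ERK1, the kinase at the end of the cascade. MAPK3 had 345 and 404 counts in the MET+ libraries, against 443 and 420 in MET-KO, which were 41.6 and 41.4 CPM in MET+ and 43.4 and 38.6 CPM in MET-KO cells. The MET+ libraries were nearly equal and lay between the 2 MET-KO libraries. The log2 fold change was -0.02 (95% interval -0.26 to 0.22, adjusted p = 0.910 in the edgeR test).

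**Figure D1:**
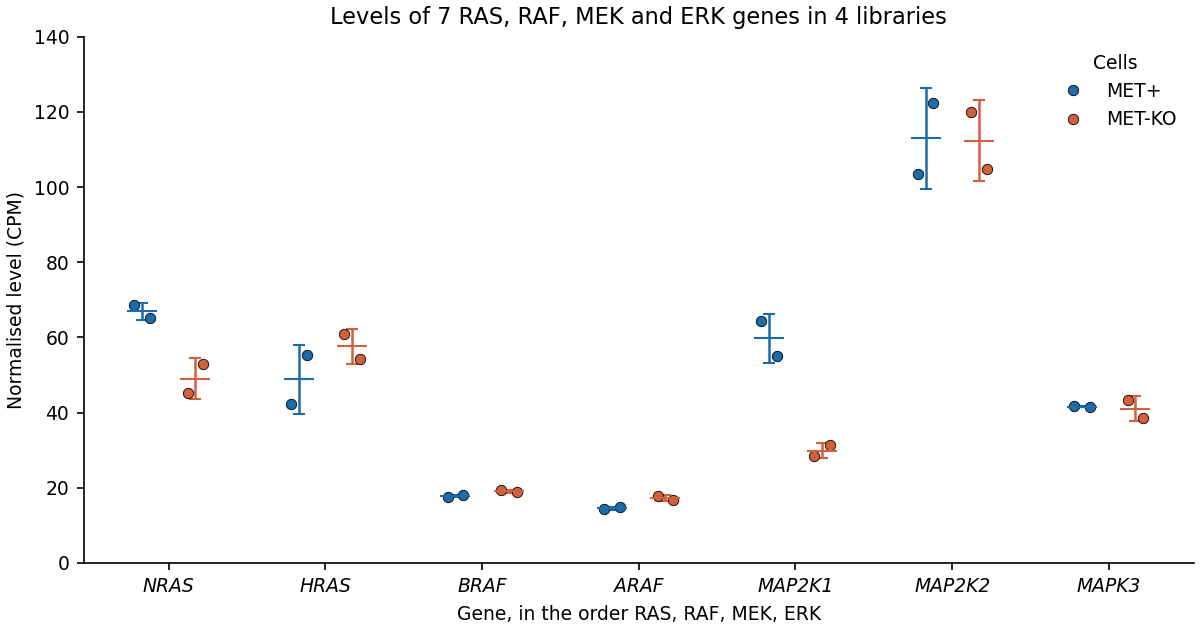
Normalised level in CPM (y axis, from 0) of the 7 genes (x axis) in MET+ (blue) and MET-KO (orange) libraries. Points are libraries, crossbars the mean of 2 libraries and error bars the SD. The MET-KO points lie clear below the MET+ points for NRAS and MAP2K1, whereas the groups interleave for HRAS, MAP2K2 and MAPK3.

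A 3' library reads each transcript once near its end, so levels in CPM were compared between genes without division by length. In MET+ cells the order of levels was MAP2K2, NRAS, MAP2K1, HRAS, MAPK3, BRAF and ARAF, from 113 ± 13.4 to 14.5 ± 0.368 CPM (SD, n = 2). The libraries of MAP2K1 and HRAS overlapped in MET+ cells, so these neighbours in the order did not differ beyond their spread. In MET-KO cells the order of levels was MAP2K2, HRAS, NRAS, MAPK3, MAP2K1, BRAF and ARAF, from 112 ± 10.8 to 17.3 ± 0.901 CPM (SD, n = 2), and no neighbours overlapped. NRAS and MAP2K1 thus came after HRAS and MAPK3, respectively, in this order. In the second MET-KO library NRAS at 53.0 CPM and HRAS at 54.3 CPM were close. The efficiency with which each 3' end was captured was not measured.

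The ratio of paralogs within a library does not depend on library scaling. NRAS took 61.8% (exact 95% interval 58.6% to 65.0%) and 54.1% (51.2% to 57.0%) of the counts of NRAS and HRAS in the MET+ libraries. In the MET-KO libraries its share was 42.6% (39.6% to 45.6%) and 49.4% (46.5% to 52.3%), below both MET+ values. NRAS was the more counted gene of the pair in both MET+ libraries. It was clearly the less counted gene only in the first MET-KO library, since the interval of the second includes an equal share. The mean log2 ratio of NRAS to HRAS differed by -0.70 between the groups, a value that also carries the uncalled change of HRAS. The sum of both genes was 111 and 121 CPM in MET+ and 106 and 107 CPM in MET-KO cells.

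MAP2K1 took 38.4% (35.8% to 41.0%) and 31.0% (28.9% to 33.3%) of the counts of both MEK genes in the MET+ libraries. In MET-KO cells its share was 19.1% (17.2% to 21.2%) and 23.0% (20.9% to 25.2%), below both MET+ values. The mean log2 ratio of MAP2K1 to MAP2K2 differed by -0.99. The sum of both MEK genes was 168 and 178 CPM in MET+ and 148 and 136 CPM in MET-KO cells.

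BRAF took 55.1% and 54.9% of the counts of both RAF genes in MET+ and 51.8% and 53.0% in MET-KO cells. All 4 exact intervals of this share overlapped, and the mean log2 ratio differed by -0.15. The sum of both RAF genes was 31.7 and 32.7 CPM in MET+ and 37.2 and 35.4 CPM in MET-KO cells. For each of the 3 pairs the ratios of the groups did not overlap, and the exact two-sided permutation test gave p = 0.333, adjusted p = 0.333 over 3 pairs, the smallest value that 2 against 2 libraries allow. The intervals cover counting error only.

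**Figure D2:**
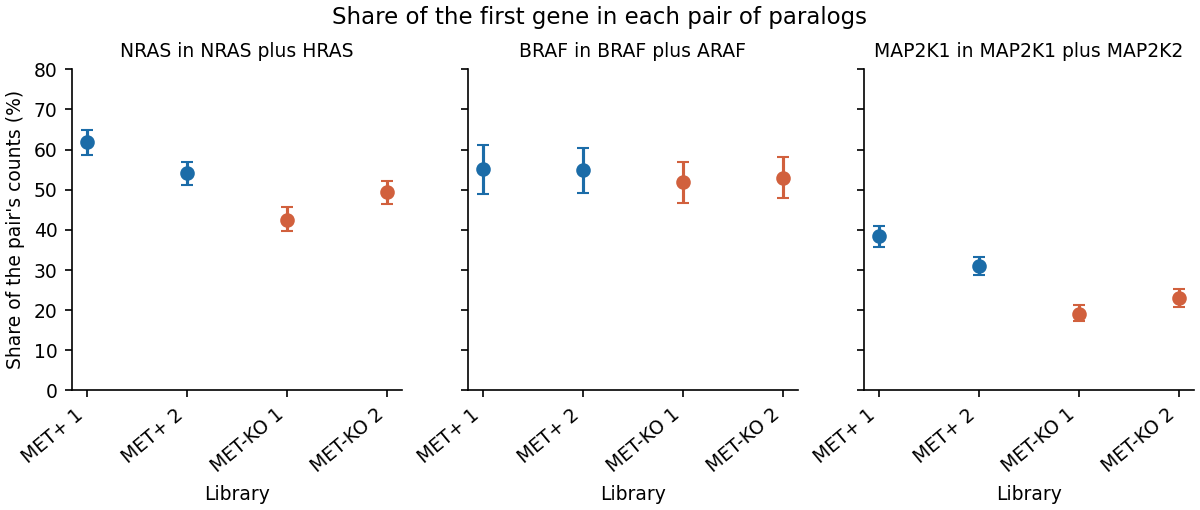
Share in percent (y axis, from 0) of the counts of each pair of paralogs taken by NRAS, BRAF or MAP2K1 in each of the 4 libraries (x axis). Points are libraries and bars exact 95% binomial intervals for counting error. The NRAS share drops from 61.8% and 54.1% to 42.6% and 49.4%, and the MAP2K1 share from 38.4% and 31.0% to 19.1% and 23.0%.

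Genes of several chromosomes differed as a whole between MET-KO and MET+ cells, so each gene was also compared with the median log2 fold change of its chromosome. Relative to that median, NRAS, BRAF and MAP2K1 were below it and none of the 7 genes was above. Among all tested genes 51.7% passed the test in this comparison, 26.1% below and 25.6% above the median. The error of the median itself is not in these p-values.

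NRAS lay below a chromosome whose median was slightly above 0. Over 1419 tested genes, chromosome 1 had a median of 0.06 on the log2 scale with quartiles of -0.33 and 0.51, and NRAS was at percentile 19.9 among them. Its difference from the median was -0.51 (95% interval -0.73 to -0.28, adjusted p = 0.000277 in edgeR with the median as offset). The 70 tested genes within 5 Mb had a median of 0.07.

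MAP2K1 lies on a chromosome whose genes were mostly lower in MET-KO cells. On chromosome 15 the median log2 fold change over 467 tested genes was -0.43, with quartiles of -0.91 and 0.10. Of these genes 28.1% were above 0, and MAP2K1 was at percentile 21.6. Its difference from the median was -0.57 (95% interval -0.82 to -0.33, adjusted p = 0.000169 in the same edgeR test), against -0.9999 from 0. Within 5 Mb the median of 74 tested genes was -0.40, close to that of the chromosome. The genes of chromosome 15 that were not called had a median of -0.06, and against these the difference was -0.94 (adjusted p = 5.82e-08 in edgeR). These genes were selected for small changes in the same data, which draws their median towards 0. This comparison therefore comes near the test against 0 and says little about the shift of the chromosome.

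BRAF showed the opposite arrangement. On chromosome 7 the median log2 fold change over 673 tested genes was 0.50, with quartiles of 0.04 and 1.08, and 77.4% were above 0. BRAF, at 0.10 and percentile 27.9, lay -0.40 from this median (95% interval -0.73 to -0.07, adjusted p = 0.0374 in the same edgeR test). This call depended on the reference. Against the 45 tested genes within 5 Mb, with a median of 0.31, the difference was -0.21 (adjusted p = 0.292 in edgeR). The genes of chromosome 7 that were not called had a median of 0.11, which their selection for small changes in the same data draws towards 0. Against these the difference was -0.01 (adjusted p = 0.978 in edgeR). It also missed the threshold without the second MET+ library (-0.40, adjusted p = 0.0892), the first MET-KO library (-0.43, adjusted p = 0.0953) or the second MET-KO library (-0.38, adjusted p = 0.149).

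HRAS, ARAF, MAP2K2 and MAPK3 lie on chromosomes with medians between -0.01 and 0.04, so the comparison with the chromosome changed little. HRAS differed from the median of chromosome 11 by 0.19 (adjusted p = 0.184 in the same edgeR test), by 0.37 without the second MET+ library (adjusted p = 0.0331 in edgeR), by 0.011 without the first MET+ library (adjusted p = 0.961 in edgeR) and by 0.12 without the first MET-KO library (adjusted p = 0.555 in edgeR). ARAF differed from chromosome X by 0.27 (adjusted p = 0.202 in edgeR). MAP2K2 differed by -0.02 from chromosome 19 and MAPK3 by -0.05 from chromosome 16 (adjusted p = 0.909 and 0.730 in edgeR), at percentiles 48.2 and 45.7 of their chromosomes.

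**Figure D3:**
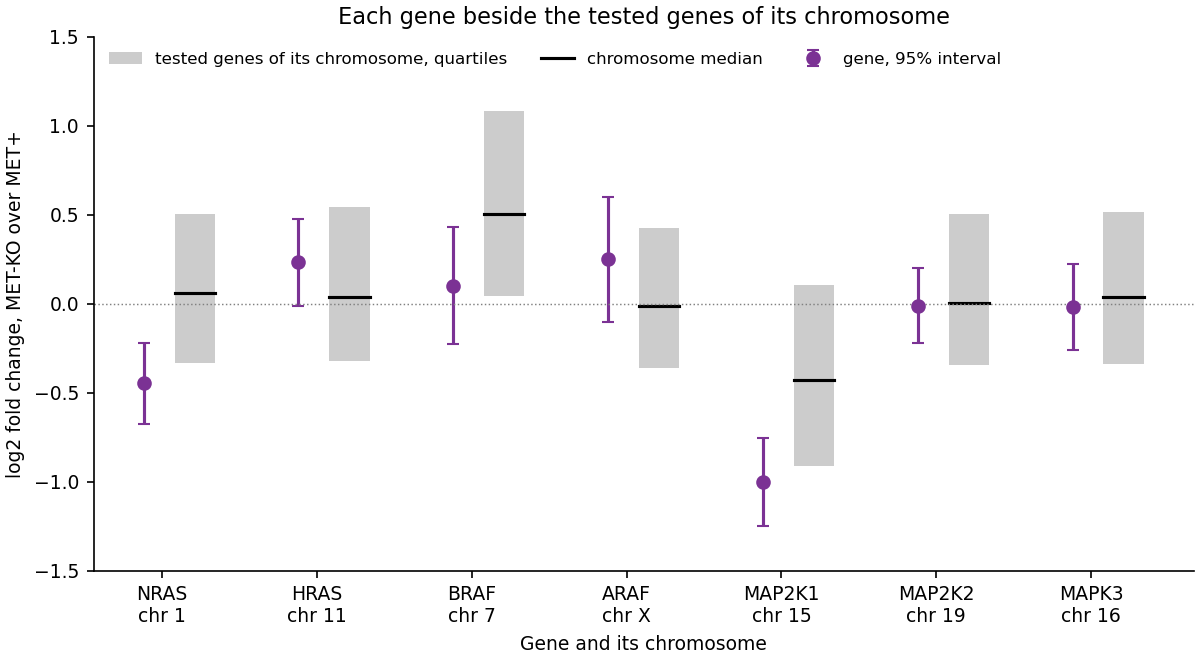
Log2 fold change of MET-KO over MET+ (y axis) of each of the 7 genes (purple, bars are 95% intervals) beside the quartiles (grey) and median (black line) of the tested genes of its chromosome (x axis). MAP2K1 at -0.9999 lies below a median of -0.43, BRAF at 0.10 below one of 0.50 and NRAS at -0.45 below one of 0.06.

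**Figure D4:**
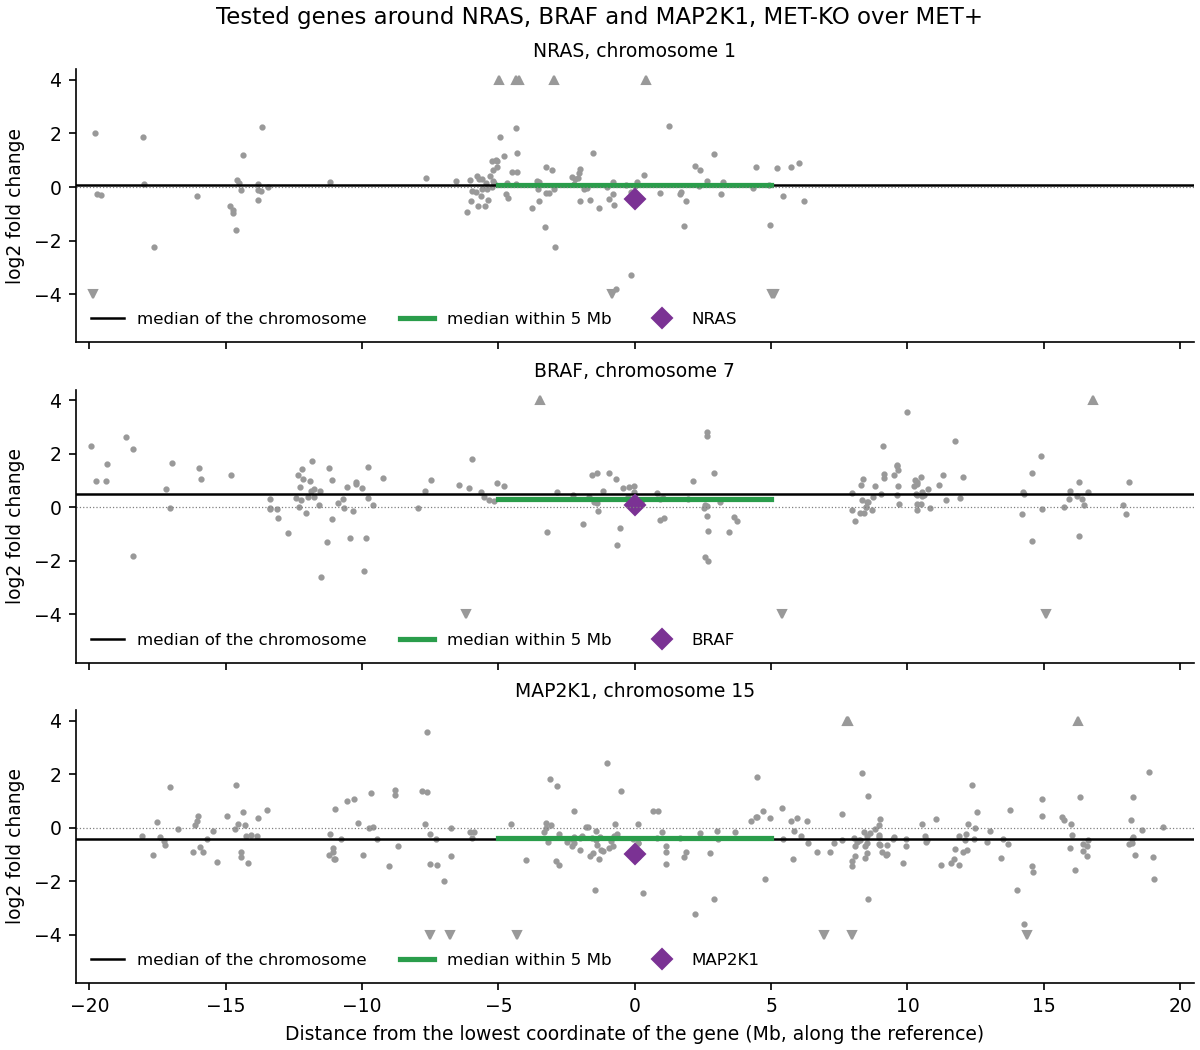
Log2 fold change (y axis) of tested genes (grey) by distance in Mb (x axis) from the lowest coordinate of NRAS, BRAF and MAP2K1 (purple diamonds), with the chromosome median (black) and the median within 5 Mb (green). Triangles are genes beyond 4 on the log2 scale. The 5 Mb medians of 0.07, 0.31 and -0.40 lie above each of the 3 genes.

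Among 132 tested genes of the pathway lists described below, the 2 with the pattern most like each gene over the 4 libraries were found by the root mean square difference of centred log2 CPM. MAP2K1 was most like DUSP6, which encodes an ERK phosphatase (0.10), and MAPK6 (0.12), and these had log2 fold changes of -1.01 and -1.10. NRAS was most like RAP1B (0.04) and PPP2CA, a phosphatase catalytic subunit (0.08), with log2 fold changes of -0.51 and -0.56. HRAS was most like RPS6KA1 (0.09) and RASA3 (0.10), BRAF like PEA15 (0.02) and ZDHHC9 (0.03), and ARAF like PPP1CB and HSP90AB1 (0.03 each). MAP2K2 was most like RRAS (0.03) and PPP5C (0.04), and MAPK3 like YWHAZ (0.04) and CCND1 (0.06). With 4 libraries in 2 groups this likeness mostly reads the difference between the groups, shifts of whole chromosomes included, and gives no p. MAPK6 lies on chromosome 15, as does MAP2K1, and DUSP6 on chromosome 12, whose median was -0.32.

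The genes around the cascade were read from 8 lists of 138 genes, of which 132 were tested. Of these, 22 passed as higher and 49 as lower, against 27.2% higher and 26.9% lower among all tested genes. The share called in either direction, 53.8%, was close to the 54.1% of all tested genes, but more of the calls were lower than higher. Their median log2 fold change was -0.12, against 0.01 over all tested genes. Relative to the chromosome medians, 19 were above and 46 below, against 25.6% above and 26.1% below among all tested genes. Levels below are mean CPM ± SD of 2 libraries, and each named change passed the edgeR test. Named changes are against 0 and so include any shift of the chromosome. Relative to the chromosome median, several named genes lay nearer 0 on the log2 scale. Among these were YWHAG at 0.61, FNTB at -0.86, RASA1 at -0.53, RASGRF2 at -1.51, ABHD17C at -3.16, SPRY4 at -2.60 and DUSP6 at -0.70. Others, as ETS2 at -1.38 and ELK3 at 0.77, lay farther from 0 by that measure.

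Upstream of RAS, 3 of 16 tested adaptors and exchange factors rose and 5 fell in MET-KO cells. This is 50% called, near the 54.1% of all tested genes. The median log2 fold change of the list was -0.17. GAB2, a docking protein for receptor tyrosine kinases, fell from 40.6 ± 3.43 to 6.42 ± 0.888 CPM, a log2 fold change of -2.66. RASGRF2, an exchange factor that loads RAS, fell by 1.94 on the log2 scale from 46.2 ± 1.72 CPM. RAPGEF1, an exchange factor for RAP1, rose from 43.4 ± 4.56 to 77.8 ± 0.101 CPM. Of 8 tested RAS GTPase-activating proteins, which return RAS to its GDP state, 2 were lower and none was higher, with a median of 0.03. Among all tested genes 26.9% were lower and 27.2% higher. RASA1, which overlaps CCNH on the opposite strand, fell by 0.96 on the log2 scale to 10.3 ± 2.09 CPM.

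Of 14 tested related small GTPases, 3 rose and 4 fell in MET-KO cells. The share called, 50%, was near the 54.1% of all tested genes. The median log2 fold change of these GTPases was -0.20. MRAS, which takes part in a phosphatase complex that acts on RAF, rose from 6.70 ± 0.929 to 13.8 ± 0.394 CPM. RHEB, an activator of mTORC1, rose from 47.7 ± 1.88 to 76.6 ± 0.287 CPM, by 0.68 on the log2 scale. RHEB lies on chromosome 7, and its difference from that chromosome's median was 0.18 (adjusted p = 0.160 in edgeR). RAP1B, a GTPase of cell adhesion, fell by 0.51 on the log2 scale, and its difference from the median of chromosome 12 was -0.20 (adjusted p = 0.162 in edgeR). RALB, a RAL GTPase, fell from 39.0 ± 1.39 to 31.1 ± 3.46 CPM, a log2 fold change of -0.33 that missed the threshold without the second MET+ library (-0.30, adjusted p = 0.112) and without the second MET-KO library (-0.21, adjusted p = 0.297).

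Genes that lipid-modify, shuttle or turn over RAS proteins had a median of 0.13, with 2 of 16 higher and 4 lower. This is 37.5% called, against 54.1% of all tested genes. ABHD17C, of a family of enzymes that remove palmitate from NRAS, fell from 292 ± 23.5 to 24.4 ± 4.10 CPM, a log2 fold change of -3.59. FNTB, the beta subunit of farnesyltransferase, fell from 25.7 ± 1.71 to 9.89 ± 0.969 CPM. FNTB overlaps the readthrough gene CHURC1-FNTB on its own strand, so its value is uncertain. Overlaps on the opposite strand, of FNTB with MAX and of PDE6D with COPS7B, make the values of FNTB and PDE6D uncertain too. PDE6D, a chaperone of farnesylated RAS, rose from 21.0 ± 2.59 to 30.5 ± 3.23 CPM, and LYPLA2, a thioesterase, rose from 50.3 ± 1.17 to 66.6 ± 7.92 CPM. Without the first MET-KO library PDE6D had a log2 fold change of 0.42 (adjusted p = 0.0607 in edgeR) and LYPLA2 one of 0.28 (adjusted p = 0.0966 in edgeR).

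Scaffolds and regulators of RAF moved in both directions, with 8 of 27 higher, 10 lower and a median of 0.02. The share called was 66.7%, against 54.1% of all tested genes. KSR1, a scaffold that binds RAF, MEK and ERK, rose from 7.66 ± 1.62 to 18.5 ± 1.19 CPM. YWHAG, which binds phosphoserine in RAF and other proteins, rose from 119 ± 13.0 to 255 ± 10.8 CPM. SFN, a phosphoserine-binding protein of epithelial cells, fell from 1215 ± 218 to 483 ± 139 CPM. PHB, a prohibitin, fell from 293 ± 27.4 to 168 ± 9.52 CPM. KSR1 has a same-strand overlap with AC015688.4, which makes its value uncertain.

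Among 19 tested ERK effectors, 3 rose and 6 fell in MET-KO cells. The share called was 47.4%, against 54.1% of all tested genes. The median log2 fold change of the effectors was -0.18. ETS2, an ETS transcription factor, fell from 118 ± 2.11 to 56.0 ± 5.03 CPM, and RPS6KA2, a ribosomal S6 kinase, fell from 11.3 ± 2.06 to 5.52 ± 1.03 CPM. RPS6KA2 overlaps RAMACL and AL159163.1 on its own strand. MYC, a transcription factor of growth, rose from 72.1 ± 0.463 to 91.3 ± 0.496 CPM, a log2 fold change of 0.34. ELK3, an ETS factor, was at 0.45 (adjusted p = 0.0495 in edgeR) and missed the threshold when any 1 of the 4 libraries was left out, with log2 fold changes between 0.38 and 0.51 (adjusted p between 0.0508 and 0.182 in edgeR).

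The other MAP kinase cascades had 11 of 22 tested genes lower and 3 higher, against 26.9% lower and 27.2% higher among all tested genes, with a median of -0.28. Of the kinases that act on p38, MAP2K3 rose from 71.7 ± 0.424 to 168 ± 16.2 CPM whereas MAP2K6 fell from 19.0 ± 1.80 to 1.42 ± 0.205 CPM. MAPK11, a p38 kinase, rose by 2.61 on the log2 scale to 15.6 ± 0.825 CPM. MAP3K5, a stress kinase, fell from 20.4 ± 1.33 to 2.84 ± 0.142 CPM, a log2 fold change of -2.84. These changes were larger than that of any of the 7 genes of the cascade itself. They were picked for their size within the list, so this does not compare the list with the 7 genes.

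Of 10 transcripts known to follow ERK activity, 7 were lower and none was higher, where 26.9% of all tested genes were lower and 27.2% higher. Their median log2 fold change was -0.44, and 6 were below the median of their chromosome, as were 26.1% of all tested genes. SPRY4, a feedback inhibitor of RAS signalling, fell from 32.3 ± 8.50 to 3.93 ± 0.295 CPM, a log2 fold change of -3.03. DUSP4, a MAP kinase phosphatase, fell from 147 ± 19.8 to 60.8 ± 5.92 CPM. DUSP6 fell from 216 ± 0.344 to 107 ± 0.788 CPM. CCND1, the cyclin that pairs with CDK4, had 511 ± 27.9 and 530 ± 25.1 CPM and was not called. PHLDA1, EPHA2, EPHA4 and ETV5 were also lower. PHLDA1 lies on chromosome 12, and its difference from that median was -0.07 (adjusted p = 0.530 in edgeR). SPRY2 and ETV4 were not called.

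**Figure D5:**
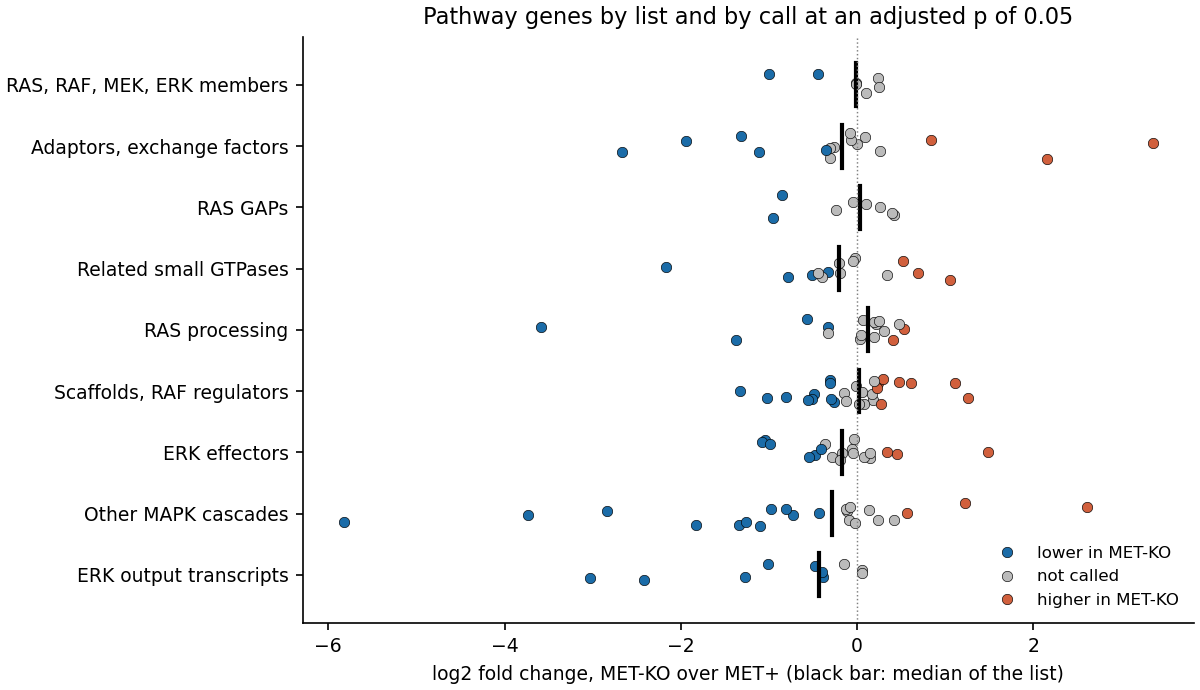
Log2 fold change of MET-KO over MET+ (x axis) of each tested gene in the 7 described genes and 8 lists around the cascade (y axis). Points are genes, coloured by whether they passed an adjusted p of 0.05 as lower (blue) or higher (orange), and black bars are list medians, from -0.44 for ERK output transcripts to 0.13 for RAS processing.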

How the data were processed

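RNA sequencing by QuantSeq FWD, which reads the 3' end of transcripts, covered 2 MET+ and 2 MET-KO libraries of LoVo cells, grouped by the labels. The authors deposited raw counts per gene, with 58825 gene identifiers and 99 spike-ins at 0 counts. The submitters' processing notes name STAR 2.5.4a, featureCounts 1.6.2 and GRCh38, and the annotation release and strand setting are not given in the sources used here. Gene positions were taken from GENCODE version 29, in which 58552 identifiers were found.

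The total was 8429142 to 10286552 counts per library, so 3 counts equal 0.276 to 0.362 CPM. Counts were tested in R 4.3.3 with edgeR 4.0.16 by the quasi-likelihood test, after filterByExpr by group (13801 genes tested) and TMM scaling, with condition as the only term and Benjamini-Hochberg adjustment over all tested genes at 0.05. For the comparison with a chromosome, its median log2 fold change was an offset of the MET-KO libraries. Scripts were tested on simulated data. The replicates differed by more than sampling noise (chi-square per degree of freedom 5.45 in MET+ and 4.86 in MET-KO). The genes and lists were chosen with earlier results of these data known. Named genes are those described here, their 2 most alike genes each, and from each list the called genes that changed most, 2 per direction, where the mean log2 CPM reached 3. The rest of the ERK output list and the marker genes are named outside this rule. Alternatives were DESeq2 size factors, library totals alone, a replicate block, the Wald test of DESeq2 1.42.0, a filter of 10 counts per library or none, other reference genes for the chromosome, and leaving out each library. Figures were drawn with matplotlib.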

Additional observations from a re-analysis of the deposited data

How the results depend on the processing

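NRAS and MAP2K1 passed as lower under all 10 alternatives (NRAS -0.56 to -0.34, MAP2K1 -1.12 to -0.88 on the log2 scale), and below their chromosome under all 12. These 12 include the uncalled genes of the chromosome as reference, a setting that comes near the test against 0. The number of the 7 genes called was 2 or 3, also when each library was left out. The third was HRAS with library totals alone or without the second MET+ library. Relative to the chromosome, the number was also 2 or 3. There the third was HRAS without the second MET+ library, and otherwise BRAF. BRAF lay below the chosen median in all 12 alternatives (-0.47 to -0.01) and was called in 4. Among the others it was at -0.40 by DESeq2's Wald test (adjusted p = 0.143) and at -0.35 with at least 10 counts in every library (adjusted p = 0.0745 in edgeR), and the cause was not tested. Calls in the pathway lists numbered 57 to 74 against 71, and 57 to 63 when each library was left out, where fewer samples enter the test. Calls over all genes numbered 5760 to 7547 against 7467.

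The uncalled log2 fold changes near 0 changed sign. MAP2K2 was at 0.090 with library totals alone and 0.028 with at least 10 counts, and from -0.12 to 0.11 when each library was left out. MAPK3 was at 0.081 and 0.019 in the same settings, and from -0.11 to 0.067. Relative to its chromosome MAP2K2 was at 0.015 with at least 10 counts and 0.018 against genes within 5 Mb, and from -0.13 to 0.035 when each library was left out. MAPK3 was from -0.12 to 0.036 there.

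Replicate numbers did not pair the samples, as the correlation of same-numbered deviations was -0.03. With the replicate number as a block, 2 of the 7 genes were called, 2 relative to their chromosome (BRAF at -0.40, adjusted p = 0.0553 in edgeR) and 66 of the pathway lists. RALB was not called in 5 and ELK3 in 7 of 10 alternatives. BRAF and ARAF had 118 to 204 counts per library, with 2 libraries per group. Their 95% intervals reach from -0.23 to 0.43 for BRAF and from -0.10 to 0.60 for ARAF, so changes within each interval are not excluded.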
